A study of Rattus norvegicus with 9 samples.

Results

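The interferon response genes are the genes that cells switch on after interferons or viral nucleic acid reach them, and here they were followed in blood cells of obese and lean rats. They were taken as a list of 46 names, which stand for 44 genes because 2 names were older names of other members (Isgf3g is Irf9 and G1p2 is Isg15). A probe belonged to a member when the gene name in the array files, or its RefSeq transcript, matched the list. Of the 44 genes, 36 had at least 1 probe (46 probes of 41012 on the array), and 33 had a probe bright enough to test among 22086 genes or unnamed transcripts tested.

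Peripheral blood mononuclear cells (PBMC), the lymphocytes and monocytes of blood, were isolated on a Ficoll gradient from 9 fed male Wistar rats aged 6 months. The cafeteria group was 5 rats that received, for 4 months from 2 months of age, an energy-dense high-fat cafeteria diet besides chow, which made them obese. The control group was 4 rats kept on standard chow for the same time, after the study set aside 1 further control whose RNA was too scarce. Each array compared RNA of 1 animal (Cy5) with a pool of the RNA of all groups (Cy3), so a value is the log2 ratio of an animal to that pool. No genetic change and no drug was part of either group, and the animals were not pooled on the Cy5 side. Animals carry the numbers 1, 4, 7, 10 and 13 in the cafeteria group and 1, 4, 7 and 13 in the control group. A number shared by both groups was not taken as a pair, though cafeteria 1 and control 1 lay on the same array slide.

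Type I interferons bind a receptor that activates the kinases JAK1 and TYK2, and signalling from them assembles the factor ISGF3, which includes STAT2 and IRF9. ISGF3 binds the interferon-stimulated response element (ISRE) in promoters, while interferon gamma acts mainly through the gamma-activated site (GAS). Mononuclear blood cells are a common place to measure the response, because monocytes, lymphocytes and plasmacytoid dendritic cells all carry the receptors.

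The promoters of 5 members are shown as examples. Rsad2, Bst2 and Isg20 had differences between diets with low unadjusted p, none of which passed the adjusted threshold. Irf7 and Oas1a belonged to the genes that followed the same animals. Each sequence runs from 250 bases before to 50 bases after the gene start, 5′ to 3′ on the strand of the gene, from RefSeq on the GRCr8 build. Capitals mark GAAANNGAAA, the core of an ISRE, or TTCNNNGAA, the core of a GAS, read on either strand.
Rsad2: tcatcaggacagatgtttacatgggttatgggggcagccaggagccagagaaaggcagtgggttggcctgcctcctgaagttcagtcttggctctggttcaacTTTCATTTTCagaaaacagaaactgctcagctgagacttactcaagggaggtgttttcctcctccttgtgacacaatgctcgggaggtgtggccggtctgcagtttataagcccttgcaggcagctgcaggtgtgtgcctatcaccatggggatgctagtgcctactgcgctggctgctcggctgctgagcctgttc
Bst2: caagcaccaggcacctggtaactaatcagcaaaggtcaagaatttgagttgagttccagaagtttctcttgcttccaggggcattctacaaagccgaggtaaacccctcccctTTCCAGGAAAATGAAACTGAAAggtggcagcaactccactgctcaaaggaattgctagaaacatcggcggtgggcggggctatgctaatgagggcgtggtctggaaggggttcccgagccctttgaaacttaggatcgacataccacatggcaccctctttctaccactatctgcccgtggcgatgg
Isg20: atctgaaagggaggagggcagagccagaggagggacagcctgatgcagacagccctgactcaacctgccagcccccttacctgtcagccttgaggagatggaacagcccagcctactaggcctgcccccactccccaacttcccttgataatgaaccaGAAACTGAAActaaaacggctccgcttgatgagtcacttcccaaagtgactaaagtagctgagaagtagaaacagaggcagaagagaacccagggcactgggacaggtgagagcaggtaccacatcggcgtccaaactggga
Irf7: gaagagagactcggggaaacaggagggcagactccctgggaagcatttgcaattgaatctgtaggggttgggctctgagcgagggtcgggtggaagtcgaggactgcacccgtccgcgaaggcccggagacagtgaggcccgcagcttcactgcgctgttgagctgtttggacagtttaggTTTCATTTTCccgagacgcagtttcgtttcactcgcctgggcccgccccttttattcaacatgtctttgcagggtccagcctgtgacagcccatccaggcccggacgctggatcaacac
Oas1a: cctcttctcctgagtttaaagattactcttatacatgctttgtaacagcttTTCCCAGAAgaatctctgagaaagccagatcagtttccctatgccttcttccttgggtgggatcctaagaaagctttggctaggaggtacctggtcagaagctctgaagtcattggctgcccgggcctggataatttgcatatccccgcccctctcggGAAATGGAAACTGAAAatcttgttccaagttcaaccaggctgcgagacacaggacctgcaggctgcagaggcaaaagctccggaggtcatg

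These windows lie at chr6:48788071-48788370 (minus strand) for Rsad2, chr16:18254918-18255217 (minus strand) for Bst2, chr1:142239809-142240108 (plus strand) for Isg20, chr1:205799974-205800273 (minus strand) for Irf7 and chr12:41330216-41330515 (plus strand) for Oas1a. In Rsad2 the ISRE core began 147 bases before the gene start, in Isg20 92 bases before it and in Irf7 69 bases before it. Bst2 held 2 overlapping ISRE cores, 131 and 125 bases before the start, and its single GAS core overlapped the first of them. Oas1a held 2 overlapping ISRE cores, 41 and 35 bases before the start, and a separate GAS core farther upstream. The promoter table had 26 of the 33 tested members. An ISRE core stood in 17 of these 26 promoters (65.4%), against 1312 of 33469 promoters of all genes (3.92%). A GAS core stood in 8 of the 26 (30.8%), against 8.87% of all promoters. A match to these letters is a description of the window and not a shown binding site. Ddx58, Mx2, Ifit1, Ifit2, Rtp4, Isg15 and Usp18 were tested members outside the table.

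On the arrays, the spots other than controls whose Cy5 signal was well above background made up 58.8% to 66.7% of each array. Of 10 listed markers per cell type, 9 were measured for T cells, 8 for B cells, 9 for NK and cytotoxic T cells and 8 for monocytes. All of these were well above background on every array. All 8 measured erythroid markers and all 9 platelet markers were too, as were 4 of 6 measured neutrophil markers. A measured marker had already passed the filter of at least 4 arrays well above background, so these counts do not tell which cell types were present. Of the erythroid markers 7 had a higher mean in cafeteria animals, each with an unadjusted p under 0.05, and the list's median log2 difference was 0.60. The per-array median of the erythroid markers was -0.59 to -0.022 in cafeteria animals and -0.93 to -0.75 in control animals, so the groups did not overlap. For NK and cytotoxic T cells all 9 differences were above 0 (median 0.30), for B cells 8 of 8 (median 0.25), for monocytes 1 of 8 (median -0.17), for T cells 0 of 9 (median -0.10) and for platelets 0 of 9 (median -0.48). In a mixed cell sample, fewer cells of a type and less RNA per cell cannot be told apart.

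No interferon response gene passed the test between diets: 0 of 33 members had an adjusted p under 0.05 in limma (the share over all genes tested was 0%), and the lowest adjusted p among them was 0.550. At an unadjusted p under 0.05 there were 4 of 33 members, against 5.25% of all genes. Of these, Rsad2, Bst2 and Ddx58 had higher means in cafeteria animals (1.85% of all genes were higher by this rule), and Isg20 had a lower mean (3.4% of all genes). The count was 9 without cafeteria 13 (4.81% of all genes in that fit), 2 without cafeteria 4 (5.13%), 2 without control 13 (5.56%) and 9 with slide as a block (3.13%). A log2 fold change of cafeteria over control below 0 was found for 23 of 33 members, against 47.6% of all genes. Because many members moved together across animals, their signs are not separate observations. The median over the members was -0.12, against 0.0062 over all genes. That median was -0.051 without control 13, -0.071 without cafeteria 10 and -0.076 without cafeteria 7, and it was below 0 whichever animal was left out. From the Cy5 channel alone it was -0.058. Array slides held 1 animal each except slide 3 (cafeteria 1 and control 1) and slide 5 (cafeteria 10 and control 13). A fit with slide as a block therefore compares the diets only within slides 3 and 5. Its count of 9 rests on those 4 animals, on which the members also moved together. The members' median difference was -0.18 with slide as a block, -0.028 within slide 3 and -0.29 within slide 5. Within slide 3 the difference was below 0 for 17 members and above 0 for 16. Within slide 5 it was below 0 for 26 and above 0 for 6. Nothing in the labels says that the animals came from separate litters or cages, so the p-values measure the spread between these animals.

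**Figure D1:**
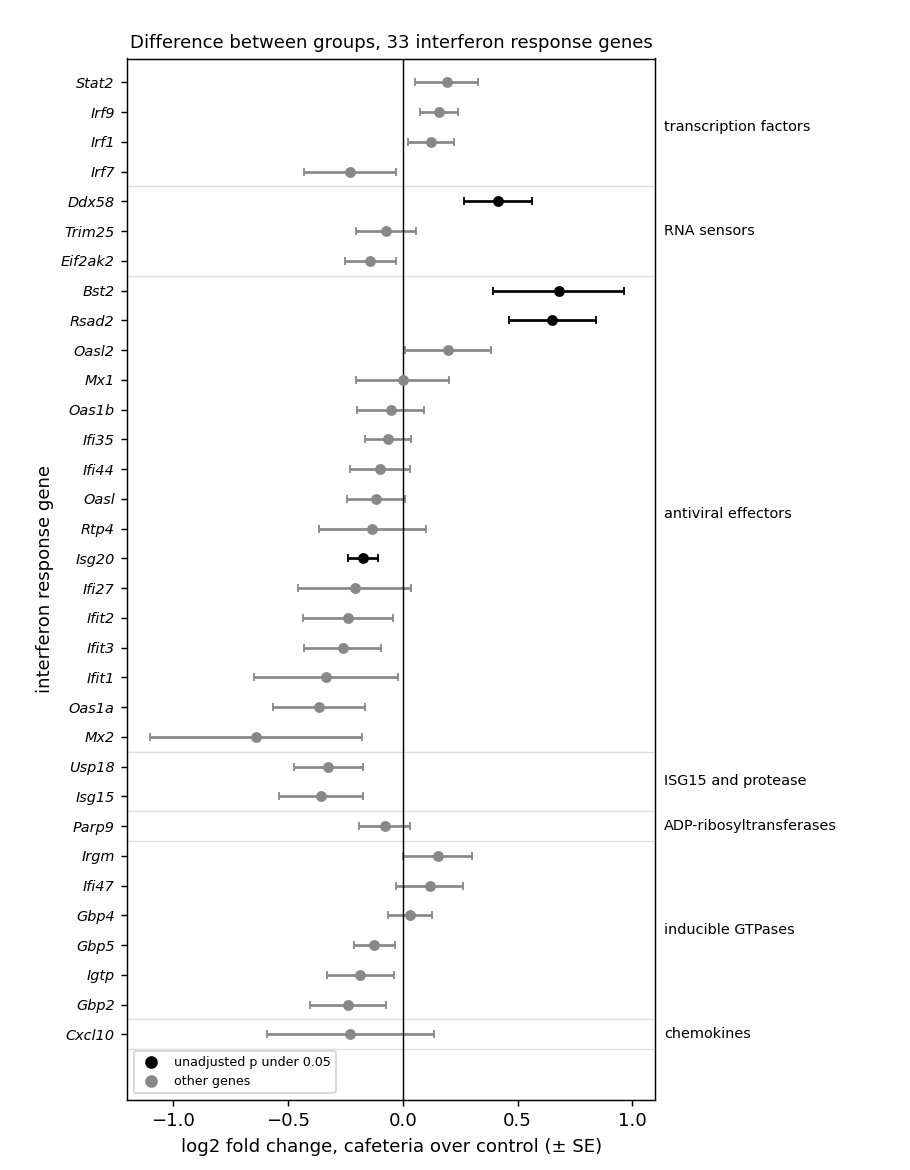
Log2 fold change of cafeteria over control with its standard error for the 33 tested interferon response genes, grouped by role and sorted within each role; black points have an unadjusted p under 0.05. Bst2 (0.68), Rsad2 (0.65) and Ddx58 (0.42) lie farthest to the right, Mx2 (-0.64) lies farthest to the left with the widest error, and no gene passed the adjusted threshold.

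Among the transcription factors, Irf9, Stat2 and Irf1 had positive differences of 0.12 to 0.19 and Irf7 a negative one. Irf7, the factor that drives the later wave of interferon genes, measured -0.49, -0.24, -0.38, -0.48 and 0.38 in cafeteria animals 1, 4, 7, 10 and 13, against -0.19, 0.34, -0.39 and 0.20 in control animals 1, 4, 7 and 13. Cafeteria 13 stood above the other 4 cafeteria animals and above every control, and the groups overlapped. The log2 fold change was -0.23 (SE 0.20, adjusted p = 0.986 in limma). A fit with slides as blocks gave -0.49, and leaving out control 4 gave -0.12 and leaving out cafeteria 13 gave -0.39. Irf1, which is induced by interferon gamma, averaged 0.0046 ± 0.13 in cafeteria animals (SD, n = 5) and -0.12 ± 0.18 in control animals (SD, n = 4), a difference of 0.12 with an SE of 0.099. With slide as a block that difference was -0.040. Irf9 and Stat2, the DNA-binding subunit and the transactivating subunit of ISGF3, had differences of 0.16 (SE 0.083) and 0.19 (SE 0.14).

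Of the RNA sensors and their regulators, 3 of 5 listed genes could be tested. Ddx58, which encodes RIG-I, a sensor of viral RNA with free triphosphate ends, measured -0.22, 0.38, 0.59, 0.10 and 0.25 in cafeteria animals 1, 4, 7, 10 and 13, against -0.33, -0.30, -0.097 and -0.051 in control animals 1, 4, 7 and 13. In cafeteria animals 4 of 5 values lay above every control value, and cafeteria 1 lay among the controls. The log2 fold change was 0.42 (SE 0.15, unadjusted p = 0.0175, adjusted p = 0.701 in limma), a 1.33-fold higher mean, and its other probe gave 0.31 (SE 0.17). Within slide 3 the Ddx58 difference was 0.11, within slide 5 it was 0.15, and a fit with slides as blocks gave 0.13.

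Eif2ak2, the kinase PKR that stops translation on double-stranded RNA, measured 0.22, 0.094, 0.20, -0.30 and 0.25 in cafeteria animals, against 0.18, 0.27, 0.21 and 0.27 in control animals. Cafeteria 10 stood below all other animals, and the difference of the means was -0.14 (SE 0.11). On a second Eif2ak2 probe, well above background on all 9 arrays, the difference was -0.20 (SE 0.12). There cafeteria 10 and cafeteria 13 both measured -0.17, and control 1 lay lower (-0.22). Trim25, the ubiquitin ligase that activates RIG-I, averaged -0.032 ± 0.18 in cafeteria animals (SD, n = 5) and 0.043 ± 0.23 in control animals (SD, n = 3). Its spot on control 13 was left out because the local background there exceeded 5 times that of the array's median spot. The Trim25 difference was -0.074 (SE 0.13), and it was 0.63 to 0.73 under 4 alternatives that keep that spot and also change the background correction or normalization.

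The antiviral effectors were the largest class, with 16 of 21 listed genes tested, 13 of them with a negative and 3 with a positive difference. Rsad2 encodes viperin, a radical-SAM enzyme that makes a chain-terminating nucleotide. It measured -0.20, 0.32, -0.82, -0.46 and -0.34 in cafeteria animals 1, 4, 7, 10 and 13, against -0.78, -0.92, -1.14 and -0.98 in control animals 1, 4, 7 and 13. All 4 controls lay low, and of the cafeteria animals only number 7 reached into their range. The log2 fold change was 0.65 (SE 0.19, unadjusted p = 0.00607, adjusted p = 0.550 in limma), a 1.57-fold higher mean in cafeteria animals. A second Rsad2 probe, which was well above background in 5 of 5 cafeteria and 2 of 4 control animals, gave 0.29 (SE 0.089). Within slide 3 the difference was 0.57 and within slide 5 it was 0.52. The lowest cafeteria value of Rsad2 and the lowest cafeteria median of the erythroid markers (-0.59) were both those of cafeteria 7, and the highest of both (0.32 for Rsad2, -0.022 for the markers) were those of cafeteria 4. What part the erythroid markers have in the Rsad2 difference was not tested.

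Bst2 encodes tetherin, which holds budding virus on the cell surface. It measured -0.44, 0.63, -0.42, -0.27 and 0.12 in cafeteria animals 1, 4, 7, 10 and 13, against -1.56, -0.36, -0.34 and -0.77 in control animals 1, 4, 7 and 13. The groups overlapped, and control 1 lay far below the other 3 controls. The log2 fold change was 0.68 (SE 0.29, unadjusted p = 0.0379, adjusted p = 0.838 in limma), or 1.60-fold, and 0.41 without control 1. The second Bst2 probe gave 0.70 (SE 0.28). Within slide 3, which held control 1, the difference was 1.12, and within slide 5 it was 0.50.

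Isg20, an exonuclease that degrades single-stranded RNA, was the 1 member whose groups did not overlap (1.79% of all genes did not). It measured -0.15, -0.33, -0.18, -0.25 and -0.27 in cafeteria animals 1, 4, 7, 10 and 13, against -0.060, -0.14, -0.054 and 0.011 in control animals 1, 4, 7 and 13. The 5 cafeteria values all lay under the 4 control values, with a narrow margin between cafeteria 1 and control 4. The log2 fold change was -0.17 (SE 0.066, unadjusted p = 0.0240, adjusted p = 0.757 in limma). Its spread within groups was the smallest of the members (SD 0.068, larger than in 4.03% of all genes). The difference was -0.094 within slide 3 and -0.26 within slide 5. It depended on the processing, with -0.12 (SE 0.095) on the authors' values, -0.13 (SE 0.088) without loess and -0.22 (SE 0.097) from the Cy5 channel alone.

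**Figure D2:**
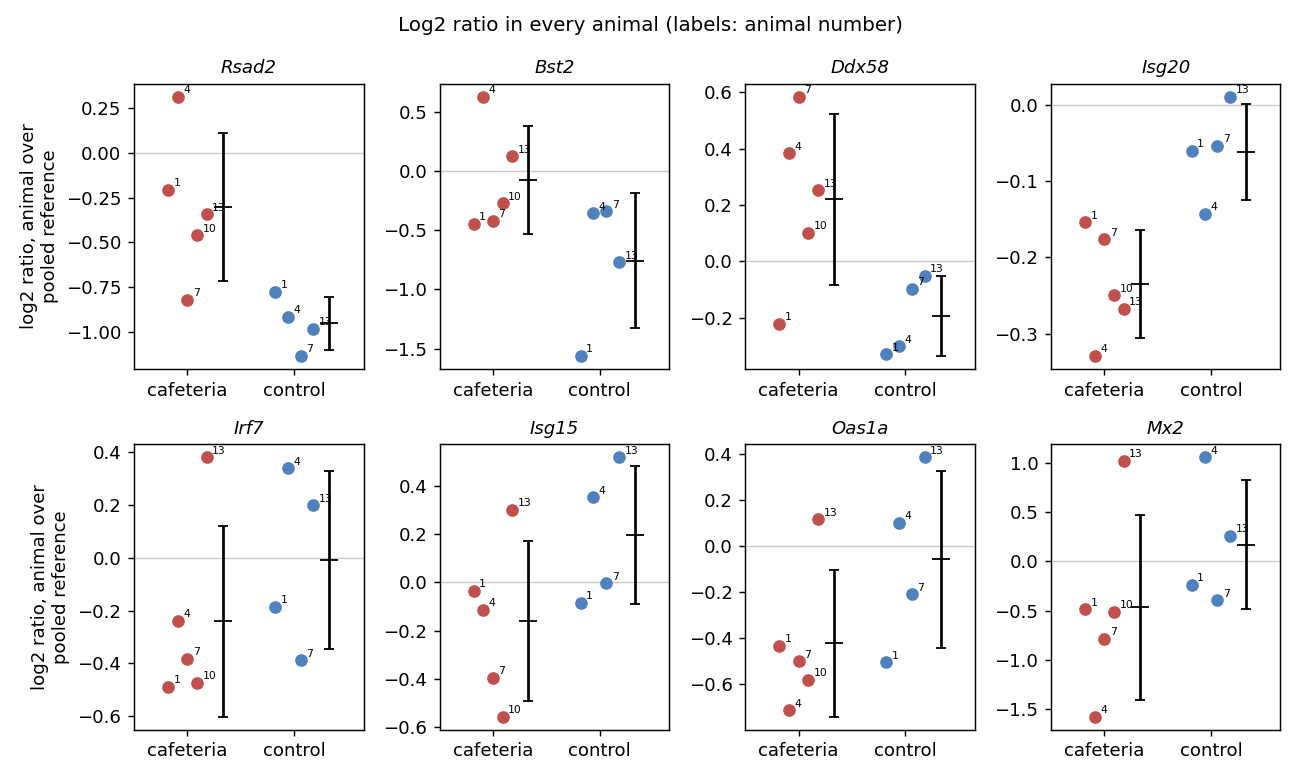
Log2 ratio to the pooled reference in every animal for 8 members, cafeteria on the left (red) and control on the right (blue) of each panel; small numbers are the animal numbers and black bars show the mean and SD. Rsad2 was low in all 4 controls, Isg20 did not overlap between groups, and in Irf7, Isg15, Oas1a and Mx2 cafeteria 13 stood highest of the cafeteria animals, with control 4 or control 13 highest of the controls.

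Mx2, a dynamin-like GTPase that blocks virus replication in rodents, varied most of all members, with a within-group SD of 0.83, larger than in 99.6% of all genes tested. It measured -0.49, -1.58, -0.79, -0.51 and 1.03 in cafeteria animals 1, 4, 7, 10 and 13, against -0.24, 1.06, -0.39 and 0.26 in control animals 1, 4, 7 and 13. Cafeteria 4 was lowest and cafeteria 13 and control 4 were highest, and the groups overlapped. The log2 fold change of -0.64 came with an SE of 0.46. It was -1.01 without cafeteria 13, -0.36 without cafeteria 4, -0.34 without control 4 and -0.26 with normexp fitted on all spots.

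Its neighbour Mx1 gave no such pattern. It measured 0.66, -0.22, -0.40, -0.20 and -0.34 in cafeteria animals, against -0.010, -0.023, -0.41 and 0.046 in control animals. Cafeteria 1 alone stood high, and the difference of the means was -9.0e-04. Oas1a, a synthetase of the 2-5A messenger that activates RNase L, measured -0.43, -0.72, -0.50, -0.58 and 0.12 in cafeteria animals, against -0.51, 0.100, -0.21 and 0.38 in control animals. Here cafeteria 13 again stood apart from the other 4 cafeteria animals. Oas1b and Oasl had differences of -0.052 (SE 0.15) and -0.12 (SE 0.13), and Oasl2 had 0.20 (SE 0.19).

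Ifit1, Ifit2 and Ifit3, which bind viral RNA or the translation machinery, had differences of -0.34 (SE 0.31), -0.24 (SE 0.20) and -0.26 (SE 0.17). The Ifit1 value is uncertain as to the copy it reports. The brightest probe, at chr1:238580038-238580097 on rn4, is named for a predicted transcript, while the probe of the curated Ifit1 transcript lies at chr1:238610083-238610142 and was well above background on only 4 arrays, with a difference of -0.0055. A further probe at the predicted transcript, well above background on 6 arrays, gave -0.025 (SE 0.21). Ifi27, a mitochondrial and nuclear-envelope protein, averaged -0.48 ± 0.51 in cafeteria animals (SD, n = 5) and -0.27 ± 0.31 in control animals (SD, n = 4). Ifi44 averaged 0.19 ± 0.23 in cafeteria animals (SD, n = 5) and 0.29 ± 0.19 in control animals (SD, n = 4), a difference of -0.099, while its other 2 probes gave -0.0047 and 0.0019. Rtp4, a chaperone of receptors that also restrains flaviviruses in other mammals, had a difference of -0.13 (SE 0.23), and Ifi35 one of -0.064 (SE 0.099).

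Isg15, the ubiquitin-like modifier, measured -0.036, -0.11, -0.40, -0.56 and 0.30 in cafeteria animals 1, 4, 7, 10 and 13, against -0.084, 0.35, -0.0033 and 0.52 in control animals 1, 4, 7 and 13. Controls 4 and 13 were highest, cafeteria 13 followed, and the difference of -0.36 had an SE of 0.18 (adjusted p = 0.951 in limma). Usp18, the protease that removes ISG15 and damps signalling at the receptor, measured -0.42, -0.22, -0.37 and -0.37 in cafeteria animals 1, 4, 7 and 10, against -0.20, 0.27, -0.40 and 0.24 in control animals 1, 4, 7 and 13. Its spot on cafeteria 13 was left out by the scanner's flags, so the difference of -0.32 (SE 0.15) rests on 4 cafeteria animals, without the one in which the related genes were highest. The second Usp18 probe gave -0.21 (SE 0.12).

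Parp9, an ADP-ribosyltransferase that works with the ligase DTX3L, averaged 0.0036 ± 0.11 in cafeteria animals (SD, n = 5) and 0.082 ± 0.24 in control animals (SD, n = 4). The 6 tested inducible GTPases, which act on membranes around intracellular microbes, split into 3 positive and 3 negative differences, from -0.24 to 0.15. Gbp2 measured -0.18, -0.41, -0.31, 0.014 and 0.13 in cafeteria animals 1, 4, 7, 10 and 13, against -0.070, 0.53, -0.28 and 0.17 in control animals 1, 4, 7 and 13. The difference was -0.24 (SE 0.16), with control 4 highest, and it was -0.091 without control 4 and -0.36 without control 7. Ifi47 averaged -0.076 ± 0.12 in cafeteria animals (SD, n = 5) and -0.19 ± 0.35 in control animals (SD, n = 4), and control 7 alone (-0.71) set the control mean low: without it the difference was -0.053 in place of 0.12. Igtp and Irgm had differences of -0.19 (SE 0.15) and 0.15 (SE 0.15).

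Of the chemokines that attract T cells through CXCR3, Cxcl10 could be tested. It measured -1.39, 0.44, -0.31, 0.26 and 0.44 in cafeteria animals 1, 4, 7, 10 and 13, against -0.13, -0.12, -0.038 and 0.76 in control animals 1, 4, 7 and 13. Cafeteria 1 lay far below all others, and without it the difference was 0.091 in place of -0.23 (SE 0.36). Without control 13 it was -0.013, on the scanner software's ratio -0.93 and with slide as a block -0.88. Cxcl9 was well above background on 1 array, and Cxcl11 and the membrane protein gene Ifitm3 on 0 arrays, so these 3 genes were not tested.

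Many members followed the same animals within each group. Each value was set against the mean of its own group, which removes the difference between diets. By this measure the median member stood 0.18 above its group mean on cafeteria 13, 0.17 above on control 13 and 0.12 above on control 4, and it stood 0.18 below on control 7 and 0.099 below on control 1. The remaining 4 cafeteria arrays had medians of -0.076 (animal 1), 0.043 (animal 4), -0.065 (animal 7) and -0.069 (animal 10). Over all genes tested, the same medians lay between -0.013 and 0.0064, which the normalization of each array brings about by its construction. The shares of all genes in the next counts are the comparison.

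**Figure D3:**
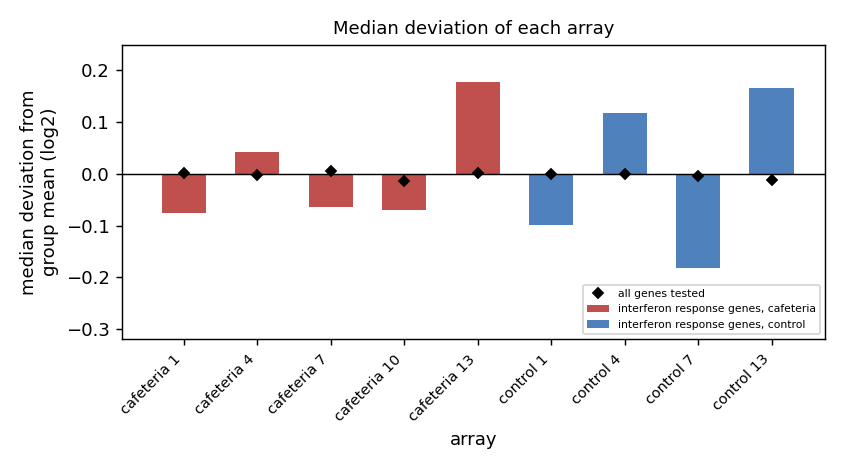
Median deviation from the mean of the own group, in log2 units, on each array for the interferon response genes (bars, red for cafeteria and blue for control) and for all genes tested (black diamonds). Cafeteria 13 (0.18), control 13 (0.17) and control 4 (0.12) stand up and control 7 (-0.18) stands down, while the diamonds lie near 0 because each array was normalized to its own centre.

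Cafeteria 13 was the highest cafeteria animal in 15 of 33 members, against 19.9% of all genes. Control 13 was the highest control in 16 members (18.6% of all genes) and control 4 in 13 (27.2% of all genes). Control 7 was the lowest control in 19 members (29.0% of all genes) and control 1 in 13 (23.0% of all genes). In 14 of 33 members (42.4%), against 11.1% of all genes, the highest animals were cafeteria 13 in the one group and control 4 or 13 in the other: Irf7, Irf9, Eif2ak2, Mx2, Oas1a, Oasl2, Ifit2, Ifit3, Rtp4, Ifi27, Isg15, Gbp2, Irgm and Ifi47. Cafeteria 13, control 4 and control 13 were picked after the members' values were seen, so the share of all genes is a description and not a test. On the second Eif2ak2 probe cafeteria 13 (-0.17) was not highest but lay lowest of the cafeteria animals, level with cafeteria 10. Under 6 other ways of processing, 13 to 16 members had this combination of highest animals, against 7.74% to 11.7% of all genes. In these ways of processing, cafeteria 13 was highest in 15 to 17 members, against 18.6% to 22.1% of all genes. Control 13 was highest in 8 to 21 members, against 10.7% to 19.7% of all genes, with the 8 (24.2%) without loess, where the share was 10.7%. Control 4 stood well above its share of all genes under some of these and near or below it under others. It was highest in 15 members without loess (45.5%, against 26.4% of all genes). From the Cy5 channel alone it was highest in 6 (18.2%, against 22.0% of all genes) and with normexp on all spots in 6 (18.2%, against 17.8% of all genes). Promoters of 10 of these 14 genes were in the table and 8 held an ISRE core, and of the 16 promoters of other tested members 9 did.

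**Figure D4:**
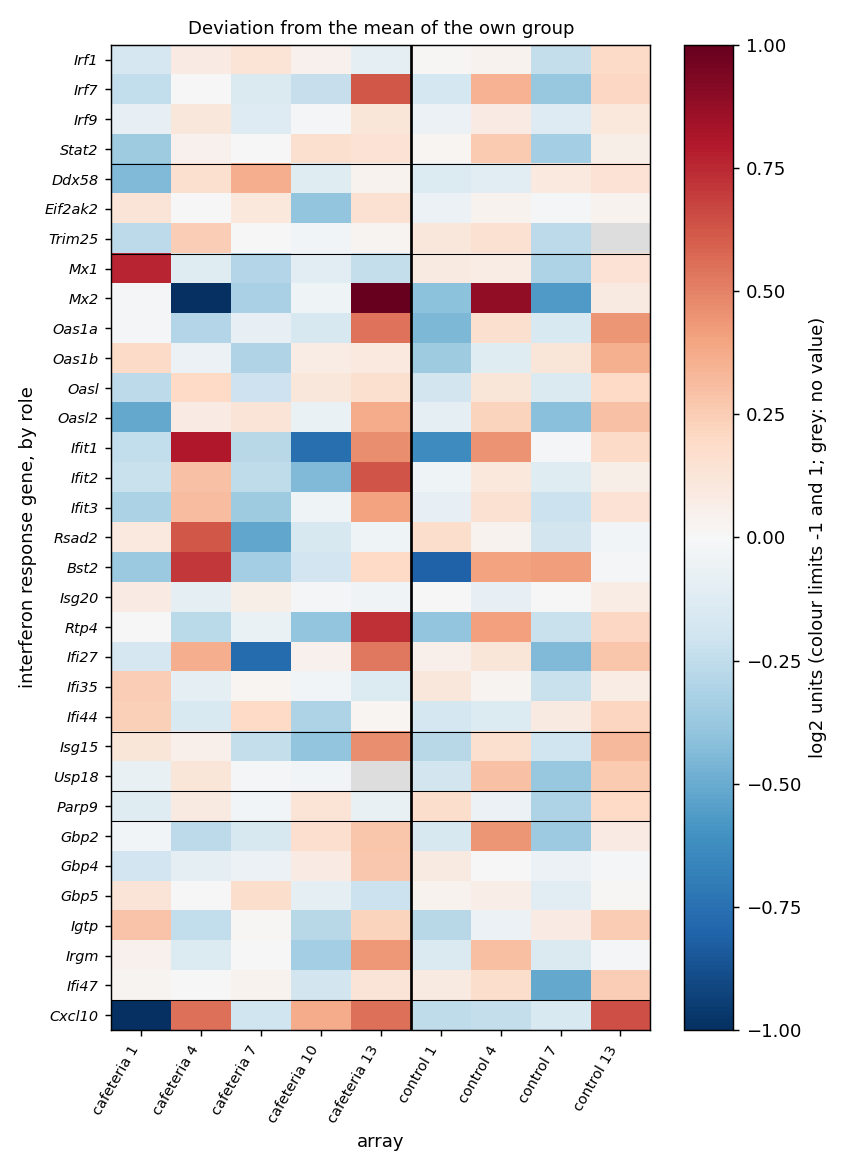
Deviation of every animal from the mean of its own group, in log2 units, for the 33 tested members ordered by role, cafeteria arrays left of the black line and control arrays right of it; red is above the group mean, blue below, grey has no value, and colours end at -1 and 1. The columns of cafeteria 13, control 4 and control 13 are mostly red and that of control 7 mostly blue, and Mx2 shows the strongest colours.

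Across the 9 arrays the deviations of pairs of members had a median Pearson correlation of 0.27 over 528 pairs, against a median of 0 for all genes, and 29.4% of the member pairs lay above 0.5, against 13.0% of all pairs. All these points share arrays and dye labelling, so the correlations describe these arrays. Irf7 had the highest median correlation with the other members (0.61), and 18 of them lay above 0.5 with it. The members whose deviations were most like those of Irf7 were Usp18 (r = 0.93, without the missing array), Rtp4 (0.89), Oasl2 (0.83), Irgm (0.83) and Irf9 (0.83). Rsad2 and Ddx58 moved little with the others, with median correlations of 0.063 and 0.091, and Isg20 (-0.20) and Gbp5 (-0.18) ran slightly the other way. The within-group SD had a median of 0.25 over the members, against 0.15 over all genes. Among genes brighter than the median it was 0.27 for 26 members and 0.17 for all such genes, and among the dimmer ones 0.25 for 7 members and 0.13 for all such genes.

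Other values stood high or low on some of the same arrays. The platelet markers had their highest control median on control 4 (1.29) and their highest cafeteria median on cafeteria 13 (0.26), though cafeteria 10 had nearly as much (0.25). The T cell markers had the lowest medians of their groups on cafeteria 13 (-0.52) and control 4 (-0.23). On control 13, however, they had their highest control median (0.14), and so did the NK and cytotoxic T cell markers (-0.096). On control 4 the markers of monocytes (0.46), B cells (0.16) and neutrophils (0.092) had their highest control medians. The markers of plasmacytoid dendritic cells, the main blood source of type I interferon, stayed within -0.092 to 0.070 in cafeteria animals and -0.034 to 0.11 in control animals, and among the high arrays they were lowest of their group on cafeteria 13 and control 13 and highest of their group on control 4. Spots with a very bright local background, which were left out, numbered 30 on cafeteria 13, 24 on control 13, 10 on cafeteria 4, 3 on control 4 and 2 on control 7, and 0 on the other arrays. With no background correction the medians were 0.18 on cafeteria 13, 0.18 on control 13 and 0.12 on control 4. Over the other ways of processing the median was 0.18 to 0.24 on cafeteria 13. On control 4 it was 0.061 on the authors' values and 0.068 with normexp on all spots, and on control 13 to 0.087 without loess. What part these cell types have in the pattern was not tested.

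The other genes of the pathway were given by a list of 63 ligands, receptors, kinases, factors, inhibitors, adaptors and further targets, of which 43 could be tested. Their differences were positive for 25 and negative for 18, with a median of 0.031, and 0 passed the adjusted threshold in limma. The unadjusted p was under 0.05 for 5 of 43, again against 5.25% of all genes. Jak1, the kinase that both interferon receptor types use, measured 0.13, 0.23, -0.042, -0.37 and -0.50 in cafeteria animals 1, 4, 7, 10 and 13, against 0.55, 0.49, 0.49 and 0.27 in control animals 1, 4, 7 and 13. Its groups did not overlap, and the difference was -0.56 (SE 0.15, adjusted p = 0.539 in limma). Irf2, which competes with IRF1 for the same sites, averaged -0.066 ± 0.37 in cafeteria animals (SD, n = 5) and 0.61 ± 0.35 in control animals (SD, n = 4). Samhd1, a phosphohydrolase that depletes deoxynucleotides, averaged 0.20 ± 0.22 in cafeteria animals (SD, n = 5) and -0.24 ± 0.13 in control animals (SD, n = 4). Il10rb and Sp110 were the other genes of the 5, with differences of -0.20 (SE 0.086) and -0.29 (SE 0.13). Groups did not overlap for 3 of 43 genes, against 1.79% of all genes: Jak1, Sp110 and the exonuclease gene Trex1, whose difference was 0.11 (SE 0.058). The receptor gene Ifnar1 had a difference of -0.22 (SE 0.16).

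No probe matched the rule for 8 listed genes: the sensors Ifih1 and Dhx58, the synthetases Oas1k, Oas2 and Oas3, the nucleotide kinase Cmpk2, the transferase Parp14 and the GTPase Gbp1. Probes that older RefSeq names tie to 4 of them, outside the rule, gave -0.22 for Parp14 (SE 0.098), -0.075 for Ifih1 (SE 0.11), 0.11 for Cmpk2 (SE 0.084) and -0.032 for Dhx58 (SE 0.14).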

How the data were processed

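The scanner files deposited by the authors give, per the file headers, spot intensity (mean) and local background (median) for each dye, not normalized, and the software's corrected log10 ratio, Cy5 to Cy3. A deposited log2-scale table holds values for 21466 spots; what the reference contributed to it is not known. Intensities were background-corrected with normexp (offset 50) and normalized within arrays by loess in limma 3.58.1 (statmod 1.5.0, package data.table, version 1.17.8, jsonlite 2.0.0, R 4.3.3), with control spots at no weight. Spots flagged as outliers, and spots whose local background exceeded 5 times the array median, were left out. The latter choice was made after the files were seen, because at most 30 such spots an array distorted the normexp fit. Probes needed Cy5 well above background on at least 4 arrays (25808 of 41012). Each gene is its probe of highest mean signal. RefSeq named 19443 probes, and positions of probes are on rn4, with no exon or untranslated region given.

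The 5 cafeteria and 4 control arrays were compared with limma (lmFit and eBayes, residual df 7, prior df 3.35), and p-values were adjusted by Benjamini-Hochberg across the 25808 tested probes at a threshold of 0.05. The fit was tested on simulated data. Values per animal were given for members with an unadjusted p under 0.05, non-overlapping groups, the largest spread in a role class or a deviation over 1 log2 unit, and further values for up to 4 bright members of each class. Mx1, Oas1a, other members given with a difference, and pathway genes were added after their values were seen. The members and lists were chosen with earlier results of these data known. Alternatives covered background, normalization, filters, probes, slide, replicate number and single animals. Figures used Python 3.11.15 with matplotlib 3.10.9, pandas 2.3.3 and numpy 2.4.6. The number of arrays limits the precision.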

Additional observations from a re-analysis of the deposited data

Results flagged for a closer look

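In 3 of the 33 sets of values tested (17 members, each group with at least 4 animals), 1 animal lay far from the others of its group. In sets not chosen for their spread, chance gives about 1 in 20. That rate does not hold here, because several of the genes (Irf7 and Cxcl10 among them) were named for a large spread and the members move together across arrays. Irf7 was 0.38 on cafeteria 13, with the other 4 cafeteria animals at -0.49 to -0.24. Eif2ak2 was -0.30 on cafeteria 10, with the others at 0.094 to 0.25. On the second Eif2ak2 probe cafeteria 10 (-0.17) did not lie apart from the other cafeteria animals (-0.17 to 0.057). Cxcl10 was 0.76 on control 13, with the other controls at -0.13 to -0.038.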

How the results depend on the processing

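The number of members past the adjusted threshold was 0 under every alternative run with a test, and the members' median difference was below 0 in all of them. It was -0.13 to -0.058 with all animals and no block, and -0.16 to -0.051 with 1 animal left out. With slide as a block, which compares the diets only within slides 3 and 5, it was -0.18. The count of members with an unadjusted p under 0.05, 4 of 33, was 9 with slide as a block and ran from 2 (without cafeteria 4 or control 13) to 9 (without cafeteria 13) with 1 animal left out. Probes called over the whole array numbered 0, but 2 when normexp was fitted on all spots, an alternative added after the data were seen, and 0 to 2 with 1 animal left out (2 without control 1 or control 13). Of 406 values of the 17 members named by the rule, 391 kept their direction. All alternatives reuse the same 9 arrays, and those that change only the filter or the variance prior return the same fold changes. The count is therefore not independent support. The Trim25 difference was 0.63 with no background correction, 0.67 on the scanner software's ratio, 0.73 on the authors' centred values and 0.66 with normexp on all spots. These keep the spot on control 13 with the bright local background, and each also changes the correction or normalization. It ran from -0.21 to 0.0016 with 1 animal left out. Irf1 was -0.040 with slide as a block, -0.055 within slide 3 and -0.026 within slide 5. Ifi47 was -0.13 with slide as a block and -0.32 within slide 5, and -0.053 to 0.20 with 1 animal left out. Within slide 3, Eif2ak2 was 0.039, Ifi44 0.31 and Isg15 0.047. Cxcl10 ran from -0.37 to 0.091 with 1 animal left out, and it was -0.93 on the scanner software's ratio, -0.88 with slide as a block, -1.25 within slide 3 and -0.50 within slide 5. The causes were not tested. With replicate number as a block, 3 members had an unadjusted p under 0.05, 0 passed the adjusted threshold and the median difference was -0.077. Same-numbered animals did not deviate together (r from -0.18 to 0.13 over all genes), so the numbers were not taken as pairs. Dim genes are limited by the signal above background.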
